A study of Homo sapiens with 13 samples.

Results

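SKOV3 cells given RSF1 were compared with SKOV3 cells given a control vector across all genes of the count table. The comparison uses 6 of the 13 libraries of the series, 3 a group. SKOV3 is a human ovarian cancer line known for an amplified ERBB2 gene. The labels give the genotypes as control vector and RSF1 overexpression and list no treatment. Another 3 SKOV3 libraries, with RSF1delUAB, entered the same fit to help estimate the spread and are not described here. They also took part in the count filter and the scaling. The vector and its promoter are not given, nor whether each group is a clone or a pool of cells. The labels also do not say whether the 3 libraries of a group came from separate cultures, so p-values reflect only how far these libraries vary among themselves, which can be technical variation.

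RSF1 is a histone chaperone that joins the ATPase SMARCA5 in the RSF chromatin remodelling complex and binds ubiquitinated histone H2A through its UAB region. Ubiquitinated H2A is laid down by Polycomb complexes, which keep developmental and other genes silent. Carcinoma cells signal to their surroundings through secreted cytokines and matrix proteins, read those signals through surface receptors and integrins, and pass them on to transcription factors such as AP-1, NF-kappaB and ETS proteins. The genes below are therefore described by where their products act: outside the cell, at its surface, on DNA, and in metabolic and other pathways.

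Total counts were 15488615 to 15856521 in the control libraries and 15194678 to 15723756 in the RSF1 libraries, and mitochondrial genes took 3.51 to 3.59 percent and 4.12 to 4.33 percent of them. RSF1 replicate 1 stood apart from replicates 2 and 3, with chi-square values divided by their degrees of freedom of 14.2 and 16.3 against 3.91 between the other two and 2.28 to 3.40 among controls. Levels are counts scaled to 1000000 per library (CPM) with TMM factors. A mean level is given ± SD (n = 3). Levels set against those of other genes are CPM per kb of the deposited gene length. Each fold change is RSF1 over control on the log2 scale ± its standard error, and a gene is said to rise or fall when its adjusted p is under 0.05 in edgeR's quasi-likelihood test. RSF1 itself (ENSG00000048649, chromosome 11, 77660009 to 77820869 on GRCh38) stood at 42.2, 47.5 and 42.2 CPM in the control libraries and 631, 775 and 749.8 CPM in the RSF1 libraries (log2 fold change 4.03 ± 0.09, adjusted p = 1.96e-18). All 3 RSF1 libraries were above all 3 control libraries, as the labels have it. Counts per gene cannot tell vector reads from endogenous ones.

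Some ovarian and Muellerian markers were well expressed in both groups, and others were barely detected in the control. PAX8, a Muellerian lineage factor, was at 506 ± 11.4 CPM in the control and 383 ± 24.7 CPM with RSF1, and SOX17, another, at 53.2 ± 5.16 CPM in the control and 46.9 ± 4.49 CPM with RSF1. Of the simple-epithelial keratins, KRT8 was at 335 ± 12 CPM in the control and 633 ± 54.0 CPM with RSF1, and KRT18, KRT7 and KRT19 were also well expressed in both groups, whereas MUC16, which encodes the antigen CA125, was at 0.0663 ± 0.0664 CPM in the control and 0.0840 ± 0.0960 CPM with RSF1. Of 15 ovarian and Muellerian markers, 13 were tested, 7 rose and 2 fell. Among those low in the control, FOLR1 went from 0.0878 ± 0.0386 to 2.63 ± 0.316 CPM and WT1 from 0.197 ± 0.0660 to 3.08 ± 0.749 CPM. CLDN3, WFDC2 and EMX2 were at 0.110, 0.285 and 0.0221 CPM in the control and 0.466, 0.596 and 0.0427 CPM with RSF1. Of 14 immune cell markers 2 were tested, with sums of 1.39 to 1.87 CPM in control and 2.74 to 3.46 CPM in RSF1 libraries, and CD3D, CD3E and MS4A1 were at 0 counts. The 8 endothelial markers summed to 5.43 to 7.90 CPM and 1.26 to 1.63 CPM, and the 7 mesothelial markers to 26.9 to 28.5 CPM and 44.1 to 51.9 CPM.

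In all, 16735 genes were tested, of which 5747 rose (34.3% of them) and 5514 fell (32.9%), so 67.3% were called. At least 2-fold rises numbered 2718 (16.2%) and 2-fold falls 1715 (10.2%). The median log2 fold change over all genes was 0.02, and the libraries of both groups did not overlap for 69% of genes. With so many calls, a list's count is read here against these shares, and its median against that of all genes. Apart from RSF1 and markers, single genes were named only if their libraries did not overlap between the groups, so non-overlap holds for them by choice. Of the markers that rose or fell, only the ovarian marker CLDN3 and the fibroblast marker THY1 had groups that overlapped.

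Whole chromosome arms moved, and this touches many single genes. Of 41 arms with at least 20 tested genes, 15 had a median at least 0.4 log2 units from that of all genes and are called marked. Marked upward were 22q at 0.94, 19q at 0.67, 14q at 0.64, 5p at 0.54, 16q at 0.46 and 17p at 0.44. Marked downward were 4q at -0.69, 18p at -0.64, 13q at -0.60, 3p at -0.54, 18q at -0.52, 1q at -0.52, 4p at -0.48, 12q at -0.43 and 21q at -0.39. On 22q, 93.3% of 388 tested genes had a positive fold change, 314 rose and 11 fell. On 4q, 17.8% of 427 had a positive fold change, 41 rose and 280 fell. The marked arms hold 5507 of the tested genes, and 74.6% of these were called against 63.7% of the 11179 on other arms.

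The shifts were alike in the 3 RSF1 libraries. Relative to the control mean of each gene, the median of 22q was 0.85, 0.83 and 0.87 in the RSF1 libraries and lay within 0.03 of 0 in every control library. For 4q it was -0.65, -0.59 and -0.67 in the RSF1 libraries. Within 22q 4 successive stretches with equal numbers of genes had medians of 0.87, 1.05, 0.94 and 0.94, so the whole arm was shifted. On 12q such stretches from the centromere outward stood at -0.14, -0.18, -0.63 and -0.66, and on 4p from the end of the chromosome inward at -0.29, -0.11, -0.59 and -1.01, so there the shift was larger over one side of the arm. Some arms that were not marked held a shifted stretch: the first of the 4 stretches of 6p had a median of -0.81 and the last of 19p 0.66. A difference in copy number between the control and RSF1 cells and a change in transcription cannot be told apart from these counts. For a gene on a marked arm, the arm is named below with the log2 fold change minus the arm median, written as relative to that arm. Genes in a shifted stretch of an unmarked arm, such as the first of 6p, carry no such value below. Their fold changes include any shift of the stretch. On marked arms shifted unevenly, such as 12q and 4p, the arm median can differ from that of the stretch around a gene. A value relative to such an arm can then take out too little or too much of the local shift.

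**Figure D1:**
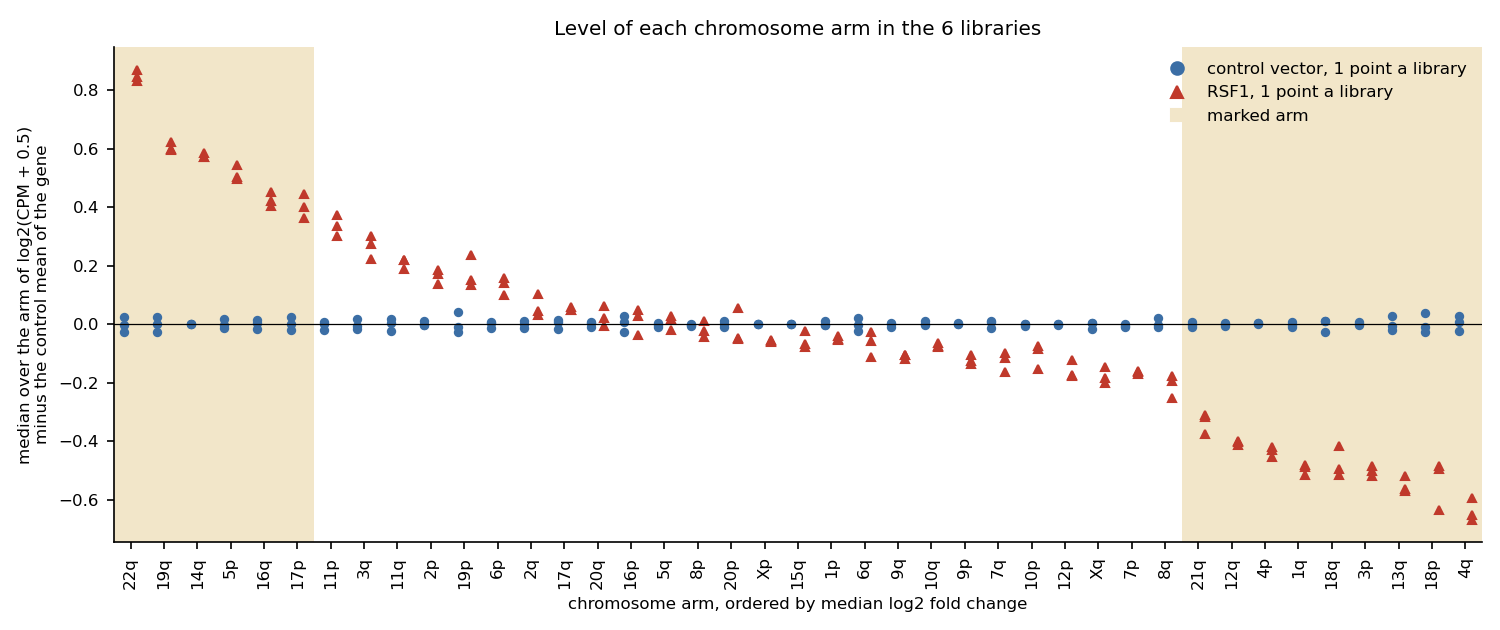
Each chromosome arm (x axis) is drawn with the median over its tested genes of log2(CPM + 0.5) minus the control mean of each gene (y axis), for 3 control libraries (circles) and 3 RSF1 libraries (triangles). The 15 shaded arms are marked, and on each of these the 3 RSF1 libraries lie on the same side of all 3 control libraries.

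**Figure D2:**
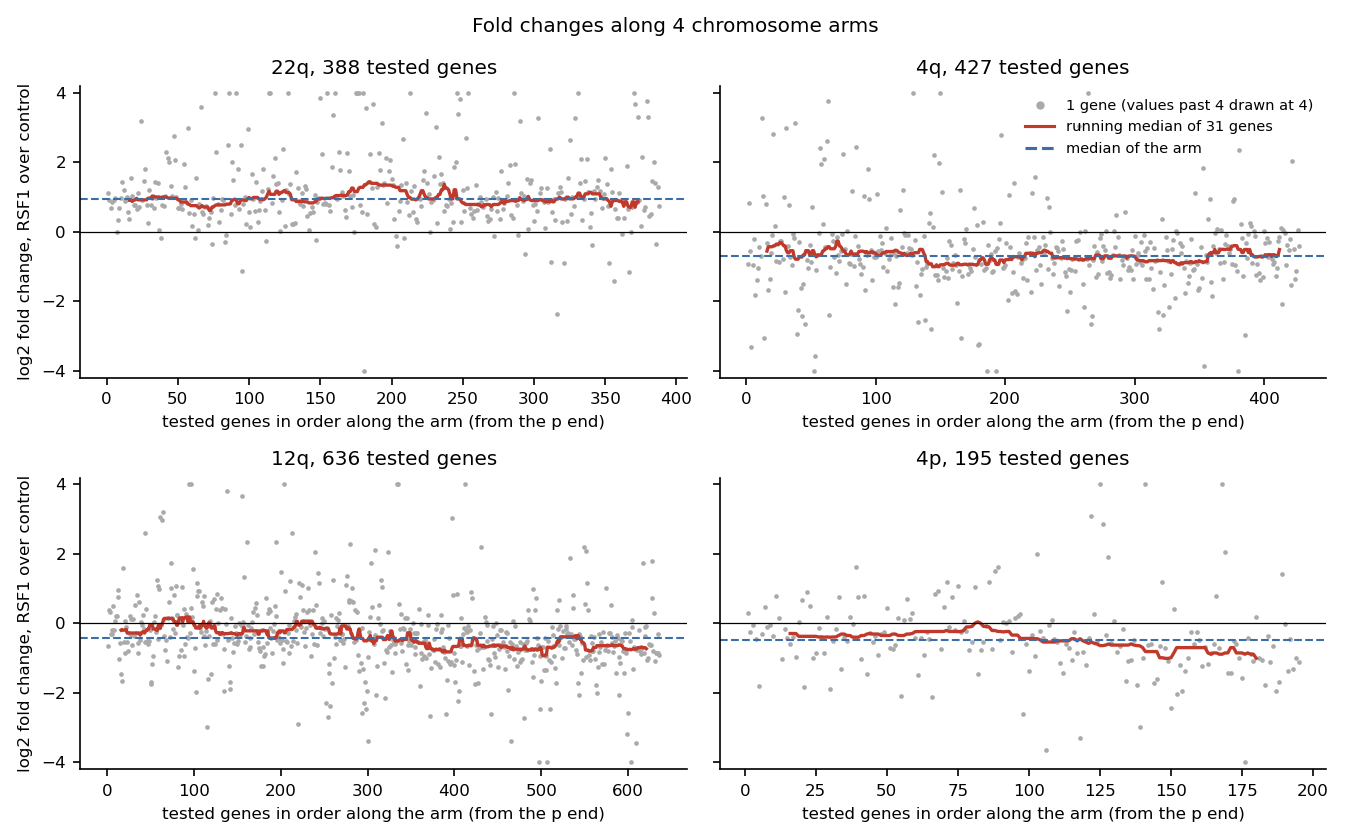
Log2 fold changes (y axis) of tested genes in their order along 22q, 4q, 12q and 4p (x axis), with a running median of 31 genes (solid line) and the arm's median (dashed line). On 22q and 4q the running median stays on one side of 0, while on 12q and 4p it lies nearer 0 toward the p end and lower toward the q end.

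Among genes for secreted proteins, rises outnumbered falls. Of 820 genes on the secreted lists 380 were tested, 217 rose (57.1%) and 100 fell (26.3%), against 34.3% and 32.9% over all genes. Their median log2 fold change was 0.86. Among those tested, 178 rose and 62 fell at least 2-fold. With the median of each arm taken out as an offset, by which 61.7% of all genes were called, 218 rose and 96 fell, so the counts of the class hardly moved when the arms were taken into account.

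The extracellular matrix made up much of this. Of matrix glycoproteins, 34 rose, 6 fell and 10 were not called among 50 tested (median log2 fold change 1.05). Fibronectin, encoded by FN1 (ENSG00000115414, chromosome 2, 215360440 to 215436073 on GRCh38), links cells to the matrix through integrins and stood at 335, 301 and 291 CPM in the control libraries and 5875, 8605 and 9739 CPM in the RSF1 libraries (log2 fold change 4.71 ± 0.13, adjusted p = 8.55e-17). Among the named secreted genes it had the largest gain per length, from 17.9 to 469 CPM per kb. HSPG2, which encodes the basement membrane proteoglycan perlecan, stood at 2.65, 3.58 and 2.71 CPM in the control libraries and 242, 447 and 549 CPM in the RSF1 libraries (log2 fold change 7.11 ± 0.26, adjusted p = 5.04e-15). RSF1 replicate 1 was the lowest of the RSF1 libraries for both genes, yet far above every control library. POSTN, which encodes the matrix protein periostin, stood at 0, 0.199 and 0.129 CPM in the control libraries and 70.7, 77.4 and 69.6 CPM in the RSF1 libraries (log2 fold change 9.27 ± 0.22, adjusted p = 1.19e-16). It rose although it lies on 13q, where most genes fell (9.88 relative to 13q). CTHRC1, a secreted protein of remodelled tissue, went from 0.747 ± 0.614 to 42.2 ± 7.50 CPM, and the follistatin-like protein FSTL1 from 24.7 to 111 CPM per kb.

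Among collagens and the enzymes that process them, rises also outnumbered falls. Of collagen genes, 17 rose and 6 fell of 23 (median log2 fold change 1.80). COL8A1 went from 7.61 ± 1.54 to 74.4 ± 4.95 CPM and COL27A1 from 2.10 ± 0.436 to 25.7 ± 2.91 CPM. COL6A1, a chain of the microfibrillar collagen VI, rose by 3.19 log2 units on 21q (3.58 relative to 21q). Of lysyl oxidases and other crosslinking genes, 6 rose and 2 fell of 9: LOX, which crosslinks collagen and elastin, stood at 23.1, 23.03 and 21.7 CPM in the control libraries and 199.6, 201 and 196 CPM in the RSF1 libraries (log2 fold change 3.14 ± 0.07, adjusted p = 2.73e-18), and the peroxidase PXDN, which crosslinks collagen IV, went from 28.7 ± 0.937 to 315 ± 52.99 CPM. SERPINH1, the collagen chaperone of the endoplasmic reticulum, went from 68.9 ± 2.78 to 400.1 ± 17.8 CPM. Of secreted metalloproteinases and their inhibitors, 20 rose and 5 fell of 33 (median log2 fold change 1.16). The gelatinase gene MMP2 rose by 4.66 log2 units on 16q (4.2 relative to 16q), and the inhibitor gene TIMP3 on 22q went from 0 counts in the control to 10.8 ± 0.964 CPM, at least 165-fold higher. Small and large proteoglycans followed, with 9 rose and 2 fell of 14, among them LUM (lumican), which rose by 5.16 log2 units on 12q (5.59 relative to 12q).

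Among laminins, falls outnumbered rises. Of laminin genes, 1 rose and 6 fell of 10 (median log2 fold change -0.58); with an offset per arm 2 rose and 5 fell, and the median relative to the arm was -0.34. LAMA3 and LAMB3 encode laminin chains of the epithelial basement membrane, to which hemidesmosomes anchor cells. LAMA3 stood at 466, 477 and 453 CPM in the control libraries and 93.8, 128 and 137 CPM in the RSF1 libraries (log2 fold change -1.96 ± 0.10, adjusted p = 6.88e-13, -1.44 relative to 18q). LAMB3 on 1q went from 122.7 to 68.0 CPM per kb (-0.85 log2 units, -0.33 relative to 1q). COL17A1, the hemidesmosomal collagen, stood at 166, 179 and 159 CPM in the control libraries and 7.37, 8.38 and 11.3 CPM in the RSF1 libraries (log2 fold change -4.22 ± 0.11, adjusted p = 4.68e-17). Its arm, 10q, was not marked. The integrin subunits of the hemidesmosome fell too. ITGB4 stood at 179.8, 172 and 165 CPM in the control libraries and 4.50, 3.81 and 5.15 CPM in the RSF1 libraries (log2 fold change -5.26 ± 0.10, adjusted p = 2.61e-19), and ITGA6 went from 513 ± 14.5 to 135 ± 9.11 CPM. Outside this group SPP1, which encodes osteopontin, fell by 1.58 log2 units on 4q (-0.88 relative to 4q), and NPNT, the integrin ligand nephronectin, went from 15.6 ± 1.03 to 0.212 ± 0.0938 CPM (-5.45 relative to 4q).

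Fibroblast markers moved with these matrix genes, and their part in the result was not tested. Of 10 such markers 7 were tested and all 7 rose. The summed level of the list was 6.42 to 8.23 CPM in control and 124 to 133 CPM in RSF1 libraries, of which POSTN and LUM, both also counted above, made up the larger share in the RSF1 libraries, and COL1A1 and COL1A2 in the control libraries. COL1A1 was at 3.19 ± 0.373 CPM in the control and 18.9 ± 3.60 CPM with RSF1, COL1A2 at 2.85 ± 0.809 CPM in the control and 7.15 ± 0.817 CPM with RSF1 and DCN at 0.0662 ± 0.0662 CPM in the control and 4.09 ± 0.577 CPM with RSF1. PDGFRA was at 0.130 ± 0.111 CPM in the control and 1.34 ± 0.122 CPM with RSF1. THY1, whose groups overlapped, was at 0.330 ± 0.352 CPM in the control and 0.917 ± 0.206 CPM with RSF1, and with an offset per arm it no longer passed edgeR's test (adjusted p = 0.0744). The 3 members that were not tested were COL3A1, with 2 counts over the control and 1 count over the RSF1 libraries, PDGFRB, with 0 counts and 9 counts, and FAP, with 3 counts and 20 counts. In bulk libraries a change in the share of a cell type and a change per cell cannot be told apart.

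Inflammatory and acute-phase genes were another group of rises among secreted proteins. Of complement genes, 14 rose and 0 fell of 17 (median log2 fold change 1.55). Of acute-phase and antimicrobial genes, 8 rose and 1 fell of 10 (median 4.60). That median was 4.10 with genes at 0 counts in a group set to their bound. Genes with 1 to 3 counts in a group kept their fitted fold change there. Of chemokines, 6 rose and 0 fell of 8 (median log2 fold change 2.03). With an offset per arm 7 chemokines rose and 1 fell. Complement component C3 (ENSG00000125730, chromosome 19, 6677704 to 6730562 on GRCh38) stood at 118, 115 and 101.4 CPM in the control libraries and 1962, 2224 and 2449 CPM in the RSF1 libraries (log2 fold change 4.31 ± 0.08, adjusted p = 4.42e-19). The protease subunit C1R of the classical complement pathway went from 4.23 ± 0.823 to 51.4 ± 5.46 CPM. LCN2, an iron-siderophore binding protein, stood at 0.529, 0.863 and 0.582 CPM in the control libraries and 143, 116 and 121 CPM in the RSF1 libraries (log2 fold change 7.58 ± 0.15, adjusted p = 8.05e-19). SAA1 and SAA2, serum amyloid A genes, had 2 counts each over the control libraries and reached 118 and 33.3 CPM, but these near-identical copies share reads and their split is uncertain. SAA1 had a ratio of 2694 with a 95% counting interval of 745 to 22247, which covers counting error only.

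Cytokines rose in part. IL6 (ENSG00000136244, chromosome 7, 22725884 to 22732002 on GRCh38) stood at 0.596, 1.19 and 0.323 CPM in the control libraries and 52.3, 49.9 and 45.1 CPM in the RSF1 libraries (log2 fold change 6.11 ± 0.24, adjusted p = 1.09e-14). CCL20, which draws cells bearing CCR6, stood at 0.662, 0.730 and 0.582 CPM in the control libraries and 34.2, 33.5 and 28.9 CPM in the RSF1 libraries (log2 fold change 5.6 ± 0.21, adjusted p = 9.57e-15). CXCL8, the neutrophil attractant interleukin 8, stood at 59.2, 58.3 and 67.5 CPM in the control libraries and 383, 355 and 257 CPM in the RSF1 libraries (log2 fold change 2.43 ± 0.11, adjusted p = 1.99e-13), 3.12 relative to 4q. CXCL1 on the same arm went from 80.5 to 311 CPM per kb (2.64 relative to 4q), but it shares sequence with CXCL2 and CXCL3. Not every cytokine followed: of interleukins and colony-stimulating factors 12 rose and 10 fell of 26, and with an offset per arm 11 rose and 12 fell. IL1A fell by 1.04 log2 units, from 89.6 to 43.7 CPM per kb, and KITLG, the ligand of the receptor KIT, fell by 1.40 on 12q (-0.97 relative to 12q).

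Promoters of these inflammatory genes were searched for a kappaB-type motif, the kind of site that NF-kappaB proteins bind, because many of the genes rose. The motif was GGGANNNTCC on either strand, within 250 bases upstream of the RefSeq start (GRCh38.p14). It was present in 4.33% of 27305 promoters and in 4.67% of 11721 promoters of tested genes. Of 28 genes that rose on the chemokine, interleukin, complement and acute-phase lists and had a promoter in the RefSeq table, 7 held it. Of 8 that fell 1 held it, of 7 that were tested and not called 1 did, and of 90 with such a promoter that were not tested 9 did. The stretches around the match in 5 of the 7 genes and in the gene that fell, IL17D, are written below in lower case with the matching bases in capitals. Capitals run to 11 bases where matches on both strands overlap.
IL6, chr7:22727097-22727167, plus strand: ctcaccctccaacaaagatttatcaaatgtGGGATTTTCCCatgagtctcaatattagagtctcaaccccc
LCN2, chr9:128149247-128149317, plus strand: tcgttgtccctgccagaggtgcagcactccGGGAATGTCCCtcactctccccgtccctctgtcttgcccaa
CXCL1, chr4:73869284-73869354, plus strand: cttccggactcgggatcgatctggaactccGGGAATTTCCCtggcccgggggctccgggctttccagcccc
CCL20, chr2:227813605-227813674, plus strand: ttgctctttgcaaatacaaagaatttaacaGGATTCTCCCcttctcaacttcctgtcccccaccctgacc
CFB, chr6:31945880-31945949, plus strand: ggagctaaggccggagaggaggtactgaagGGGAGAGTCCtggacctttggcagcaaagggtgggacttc
IL17D, chr13:20702889-20702958, plus strand: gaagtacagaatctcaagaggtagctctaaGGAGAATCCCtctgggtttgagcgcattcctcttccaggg
The IL6, LCN2 and CXCL1 stretches each hold a run that matches on both strands, 63 to 73, 166 to 176 and 69 to 79 bases before the start. CXCL8 and C1R hold no such letters in this window. A match is a description of letters, and binding was not measured here. IL17D and CFB were picked for this display after their values were seen. IL6, LCN2, CXCL1 and CCL20 had been named by the size of their change, so their display also rests on their values. CXCL2, not displayed, is another of the 7 and holds the same run of capitals as CXCL1 in a near-identical stretch.

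Growth factors and their binding proteins moved in both directions within each list. Over all genes, 34.3% rose and 32.9% fell. IGFBP3, the main carrier of insulin-like growth factors, stood at 37.9, 37.6 and 34.2 CPM in the control libraries and 1337, 1331 and 1339 CPM in the RSF1 libraries (log2 fold change 5.19 ± 0.07, adjusted p = 4.73e-21), and 7 rose and 2 fell of 11 in its list. Of TGF-beta family ligands and antagonists, 12 rose and 9 fell of 25. GDF15, a stress-induced cytokine, stood at 9.07, 9.56 and 9.30 CPM in the control libraries and 255, 204 and 209.8 CPM in the RSF1 libraries (log2 fold change 4.58 ± 0.10, adjusted p = 2.27e-18), and INHBA, the activin A subunit, went from 2.73 ± 0.785 to 77.5 ± 9.99 CPM. BMP2 fell from 25.8 ± 1.13 to 8.48 ± 1.15 CPM, and its relative BMP6 from 6.46 ± 0.280 to 1.87 ± 0.550 CPM. Of Wnt ligands and secreted modulators, 7 rose and 6 fell of 16. The Wnt antagonist SFRP1 stood at 195, 182 and 187 CPM in the control libraries and 22.7, 21.3 and 21.3 CPM in the RSF1 libraries (log2 fold change -3.11 ± 0.08, adjusted p = 7.93e-18), and the ligand WNT10A went from 14.6 ± 0.372 to 0.234 ± 0.221 CPM. The non-canonical ligand WNT5A rose by 1.97 log2 units on 3p (2.51 relative to 3p). Of EGF family ligands, 3 rose and 6 fell of 9: EREG went from 1.46 ± 0.472 to 19.95 ± 0.712 CPM on 4q (4.45 relative to 4q), whereas TGFA went from 67.8 ± 3.15 to 49.5 ± 4.58 CPM. Of FGF, PDGF, VEGF and HGF ligands, 12 rose and 15 fell of 30. FGFBP1, which releases FGFs from the matrix, went from 52.1 ± 2.26 to 4.15 ± 0.333 CPM on 4p (-3.16 relative to 4p), and FGF2 fell by 1.57 log2 units on 4q (-0.88 relative to 4q). CCN2, the connective tissue growth factor, went from 6.22 ± 0.673 to 32.5 ± 1.26 CPM.

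Protease systems outside the matrix also changed. Of extracellular serpins and other inhibitors, 13 rose and 2 fell of 19. SERPINA1, which encodes alpha-1-antitrypsin, went from 0.962 ± 0.265 to 29.5 ± 1.06 CPM on 14q (4.28 relative to 14q), and SLPI, an inhibitor of leukocyte elastase, from 114 to 334 CPM per kb. Of secreted serine proteases, 9 rose and 2 fell of 15, with PLAT, the tissue plasminogen activator, at 37.98, 39.5 and 40.2 CPM in the control libraries and 212, 199.8 and 221 CPM in the RSF1 libraries (log2 fold change 2.42 ± 0.07, adjusted p = 1.51e-16). The protease HTRA1 went from 125 ± 1.42 to 50.9 ± 3.67 CPM. Of apolipoproteins and lipid carriers, 7 rose and 0 fell of 10. Of vasoactive peptides and angiopoietins, 4 rose and 8 fell of 13: EDN1, endothelin 1, rose by 3.61 log2 units. Pregnancy-specific glycoprotein genes on 19q are near-identical copies and uncertain: PSG4 was at 0.830 ± 0.393 CPM in the control and 13.2 ± 0.368 CPM with RSF1.

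**Figure D3:**
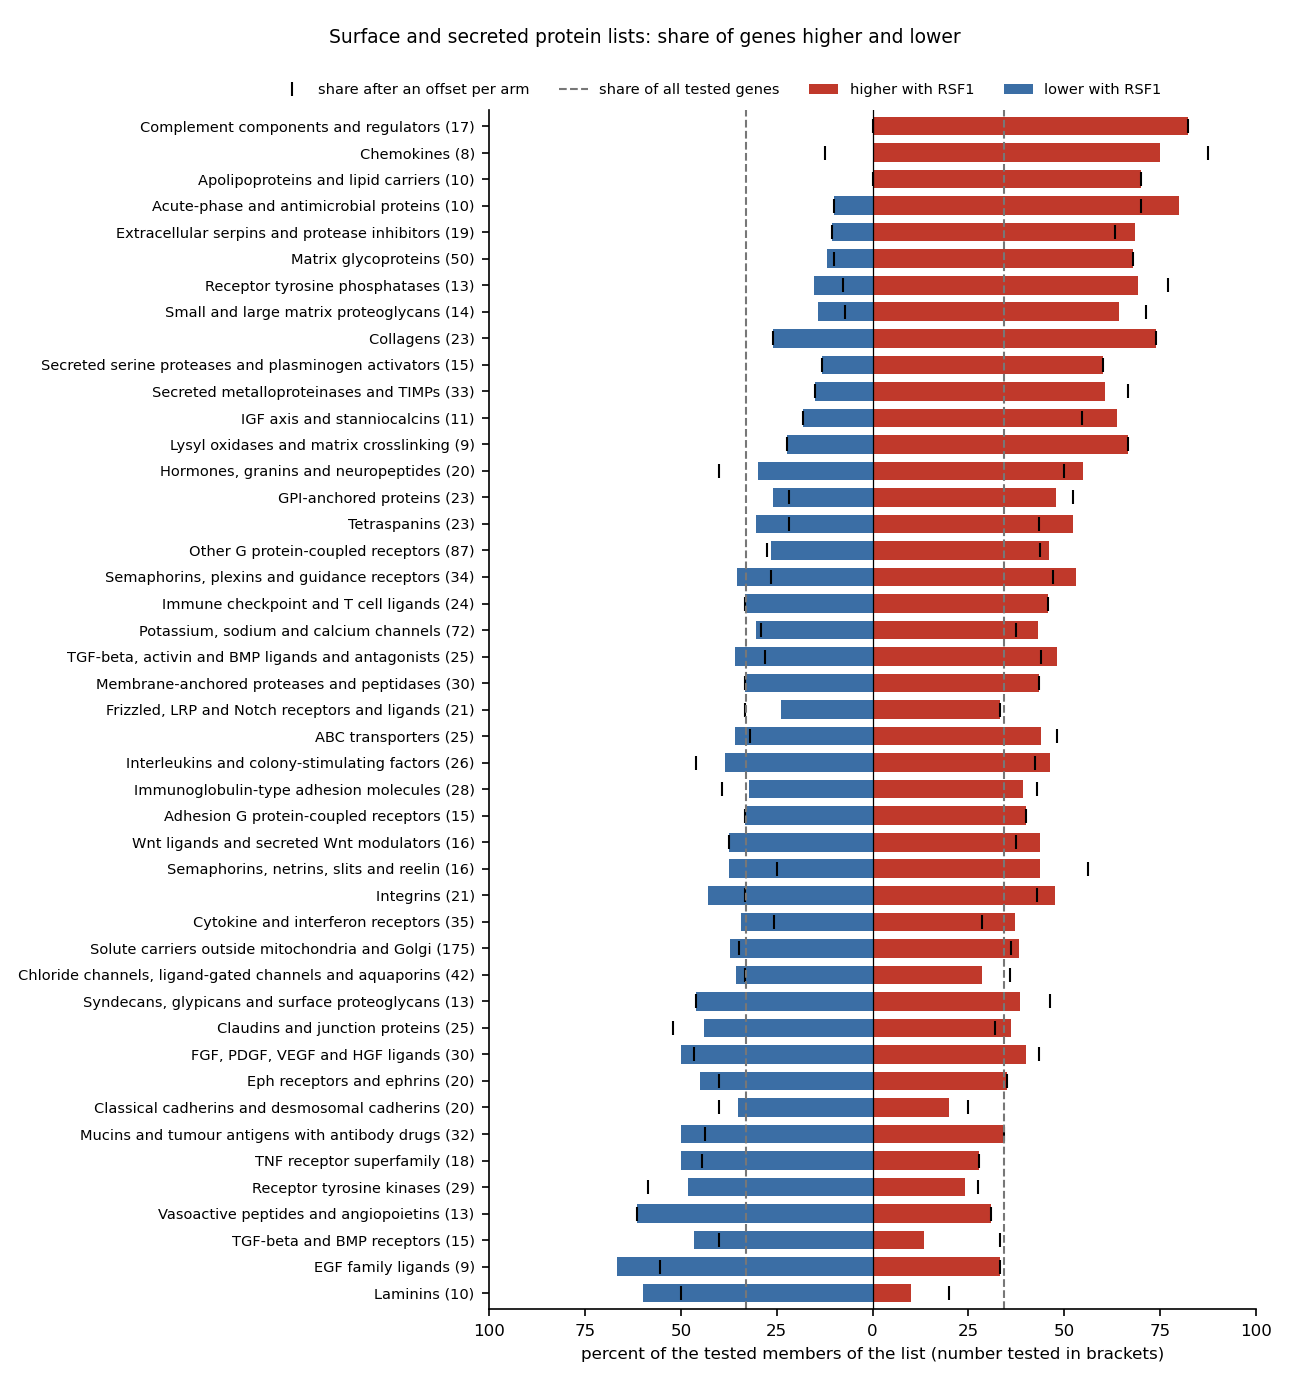
For the surface and secreted protein lists drawn, each with at least 7 tested members (number in brackets), bars give the percent of tested members that rose (right) and fell (left), short lines the same after an offset per chromosome arm, and dashed lines the shares over all genes, 34.3% and 32.9%. Complement, chemokine and acute-phase lists lie near the top with most members higher, and laminins and EGF family ligands at the bottom.

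Among surface proteins, rises and falls were close in number. Of 1520 genes on the surface lists 833 were tested, 325 rose (39.02%) and 294 fell (35.3%), with a median of 0.05. With an offset per arm 319 rose and 280 fell.

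Receptor tyrosine kinases fell more often than they rose: 7 rose, 14 fell and 8 were not called among 29 tested (median log2 fold change -0.60). ERBB2 (ENSG00000141736, chromosome 17, 39687914 to 39730426 on GRCh38), the receptor kinase amplified in this line, stood at 8536, 8723 and 8031 CPM in the control libraries and 2139, 2525 and 2816 CPM in the RSF1 libraries (log2 fold change -1.76 ± 0.07, adjusted p = 4.39e-14). Among the named surface genes this was the largest fall per length, from 817 to 242 CPM per kb, and its arm, 17q, had a median of 0.07. That median is over 745 tested genes and does not describe a short stretch such as the amplified region around ERBB2. Whether the copy number of that region differs between the groups was not tested. EPHA2, an ephrin receptor, stood at 882, 898 and 840.2 CPM in the control libraries and 172, 172 and 188 CPM in the RSF1 libraries (log2 fold change -2.30 ± 0.06, adjusted p = 4.86e-17). IGF1R, the insulin-like growth factor receptor, went from 33.5 ± 3.17 to 8.37 ± 2.98 CPM, and MST1R, the RON receptor on 3p, from 100.6 ± 5.46 to 20.3 ± 1.86 CPM (-1.77 relative to 3p). DDR1, a collagen receptor, rose from 48.3 ± 4.07 to 77.8 ± 4.10 CPM, while DDR2, the other of the pair, fell from 9.02 ± 1.25 to 1.17 ± 0.436 CPM on 1q (-2.42 relative to 1q). Receptor tyrosine phosphatases ran opposite, with 9 rose and 2 fell of 13 (median log2 fold change 0.65), such as PTPRS, a receptor for matrix proteoglycans, at 1.30 and PTPRJ at 1.24.

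Integrins exchanged members. Of 21 tested genes, 10 rose and 9 fell. ITGB3, the beta 3 subunit that binds vitronectin and fibronectin with alpha V, stood at 4.37, 4.78 and 5.36 CPM in the control libraries and 84.3, 90.5 and 94.7 CPM in the RSF1 libraries (log2 fold change 4.21 ± 0.10, adjusted p = 3.73e-18). ITGA4, which binds fibronectin and VCAM1, went from 4.83 ± 0.859 to 38.3 ± 6.81 CPM, and ITGA1, a collagen receptor subunit, from 16 ± 0.825 to 49.4 ± 5.55 CPM. The laminin receptor subunit ITGA3 went from 292 to 109 CPM per kb, and the fibronectin receptor subunit ITGA5 fell from 422 ± 28.97 to 129 ± 12.2 CPM on 12q (-1.27 relative to 12q). Of subunits that bind laminin, ITGA3, ITGA6 and ITGB4 fell, as did the laminin chains LAMA3 and LAMB3. The fall of LAMB3 was smaller relative to its arm, 1q.

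Other adhesion and junction genes were mixed. CLDN1, a tight junction claudin, stood at 24.8, 23.8 and 26.7 CPM in the control libraries and 152, 159 and 148 CPM in the RSF1 libraries (log2 fold change 2.60 ± 0.07, adjusted p = 1.01e-16). The connexin gene GJB5 fell from 10.02 ± 0.717 to 0.258 ± 0.228 CPM. CDH2, N-cadherin, rose from 45.7 ± 3.51 to 105 ± 4.30 CPM on 18q (1.73 relative to 18q), while CDH13, a GPI-anchored cadherin, fell from 63.6 ± 4.80 to 15.5 ± 4.23 CPM on the upward arm 16q (-2.49 relative to 16q). CADM1 went from 0.943 ± 0.149 to 49.7 ± 1.30 CPM, and MCAM from 0 counts to 5.70 ± 0.692 CPM, at least 86.8-fold higher. ALCAM, an adhesion molecule, stood at 397, 378 and 411 CPM in the control libraries and 829.8, 906 and 858 CPM in the RSF1 libraries (log2 fold change 1.13 ± 0.06, adjusted p = 1.22e-12).

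Among mucins and tumour antigens that antibody drugs are built against, 11 rose and 16 fell of 32, and with an offset per arm 11 rose and 14 fell. ALCAM, described above, was among those that rose, as was LYPD3, a GPI-anchored protein, which went from 6.44 ± 0.214 to 14.7 ± 2.78 CPM on 19q (0.52 relative to 19q). F3, tissue factor, stood at 975, 967 and 1002 CPM in the control libraries and 226, 215 and 211 CPM in the RSF1 libraries (log2 fold change -2.17 ± 0.06, adjusted p = 5.45e-17), CDCP1 on 3p fell from 394 ± 13 to 109 ± 17.5 CPM (-1.31 relative to 3p), and CD70 went from 272 to 155 CPM per kb. THBD, thrombomodulin, which restrains clotting, also fell, from 154 ± 2.45 to 11.7 ± 0.560 CPM.

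Of cytokine and interferon receptors, 13 rose and 12 fell of 35. IL6R stood at 81.7, 86.5 and 84.3 CPM in the control libraries and 8.48, 8.89 and 10.9 CPM in the RSF1 libraries (log2 fold change -3.15 ± 0.10, adjusted p = 8.97e-16), -2.63 relative to 1q. IL1R1, the interleukin 1 receptor, stood at 10.3, 8.76 and 9.95 CPM in the control libraries and 73.0, 88.7 and 87.2 CPM in the RSF1 libraries (log2 fold change 3.10 ± 0.10, adjusted p = 5.45e-16). IL27RA went from 1.89 ± 0.555 to 22.6 ± 1.46 CPM. In the TNF receptor family 5 rose and 9 fell of 18: CD40, a costimulatory receptor, went from 13.3 ± 1.65 to 55.2 ± 2.46 CPM, the decoy receptor gene TNFRSF10D from 156 ± 3.39 to 29.5 ± 0.459 CPM, and TNFRSF12A, the receptor of TWEAK, from 221 to 86.6 CPM per kb. The ligand of the death receptors, TNFSF10 or TRAIL, stood at 1.32, 1.33 and 1.10 CPM in the control libraries and 33.8, 32.2 and 27.8 CPM in the RSF1 libraries (log2 fold change 4.64 ± 0.15, adjusted p = 1.11e-15). In the list of TGF-beta and BMP receptors 2 rose and 7 fell of 15, and 5 rose and 6 fell with an offset per arm. ACVRL1, a receptor for BMP9, rose from 1.31 ± 0.335 to 21.3 ± 0.330 CPM on 12q (4.45 relative to 12q).

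Of semaphorins, plexins and guidance receptors, 18 rose and 12 fell of 34 tested genes. NRP1, a coreceptor for VEGF and semaphorins, stood at 62.6, 64.2 and 60.03 CPM in the control libraries and 244, 285 and 281 CPM in the RSF1 libraries (log2 fold change 2.12 ± 0.07, adjusted p = 1.61e-15), PLXNA3 went from 5.35 ± 0.742 to 44.1 ± 4.19 CPM, and PLXNA2 fell from 26.8 ± 2.75 to 2.10 ± 0.306 CPM on 1q (-3.14 relative to 1q). Of other G protein-coupled receptors, 40 rose and 23 fell of 87. LPAR1, a receptor for lysophosphatidic acid, went from 0.658 ± 0.306 to 29.03 ± 1.76 CPM, and F2RL1, the protease-activated receptor 2, fell from 189 ± 7.12 to 38.9 ± 5.72 CPM. GFRA1, the GDNF coreceptor, had 1 count over the control libraries and 63.3 ± 5.57 CPM with RSF1, a ratio of 2891 with a 95% counting interval of 518 to 114220.0.

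Transporters were evenly split. Of solute carriers, 67 rose and 65 fell of 175, and of ABC transporters 11 rose and 9 fell of 25. SLC7A11, the cystine importer that feeds glutathione synthesis, stood at 465, 447 and 475 CPM in the control libraries and 70.0, 99.7 and 88.8 CPM in the RSF1 libraries (log2 fold change -2.42 ± 0.09, adjusted p = 8.26e-15), -1.73 relative to 4q. ABCC2 and ABCG2, which export drugs and conjugates, fell from 13.1 ± 1.13 to 1.45 ± 0.219 CPM and, on 4q, from 12.2 ± 0.422 to 2.01 ± 0.368 CPM (-1.91 relative to 4q).

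Transcription factor genes rose in 407 (42.0%) and fell in 284 (29.3%) of 968 tested, with a median of 0.14, and 58.9% of the calls were rises. With an offset per arm 298 rose and 317 fell, and 48.5% of the calls were rises, so the excess of rises was lost. Numbered zinc finger genes, many of them in clusters on 19q, made up 522 of the class, and 246 of these rose and 99 fell. With the offset it was 142 and 138.

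Among factors of inflammatory signalling, rises outnumbered falls. Of NF-kappaB, STAT and IRF genes, 14 rose, 5 fell and 5 were not called among 24 tested (median log2 fold change 0.47). NFKBIZ, an atypical I-kappaB protein that coactivates acute-phase genes, stood at 21.6, 19.6 and 19.1 CPM in the control libraries and 241, 279 and 269.6 CPM in the RSF1 libraries (log2 fold change 3.71 ± 0.08, adjusted p = 3.36e-18). BCL3, another member of that family, rose from 30.2 ± 3.93 to 93.7 ± 6.87 CPM on 19q (0.96 relative to 19q). CEBPD, a C/EBP factor of the acute-phase response, stood at 45.1, 47.2 and 45.2 CPM in the control libraries and 279, 204 and 221 CPM in the RSF1 libraries (log2 fold change 2.35 ± 0.10, adjusted p = 3.36e-14). STAT3, which signals downstream of IL6, went from 318 ± 8.70 to 224 ± 16.5 CPM, a fall of 0.50 log2 units.

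AP-1, ETS and KLF genes changed composition. Of AP-1 relatives, 5 rose and 7 fell of 15: FOSL2 stood at 175, 168 and 174 CPM in the control libraries and 492, 556 and 612 CPM in the RSF1 libraries (log2 fold change 1.68 ± 0.07, adjusted p = 5.02e-14), and FOSL1 at 169, 175 and 164 CPM in the control libraries and 63.6, 54.0 and 57.5 CPM in the RSF1 libraries (log2 fold change -1.54 ± 0.08, adjusted p = 5.03e-13). These 2 Fos-related subunits thus moved in opposite directions. Of ETS factors, 6 rose and 12 fell of 20 (median log2 fold change -0.58); with an offset per arm 8 rose and 10 fell, and the median relative to the arm was -0.28. EHF, an epithelial ETS factor, stood at 2.25, 2.39 and 2.33 CPM in the control libraries and 52.3, 64.9 and 61.5 CPM in the RSF1 libraries (log2 fold change 4.68 ± 0.14, adjusted p = 1.46e-16). ETV4 and ETV5, which are induced by receptor kinase signalling through ERK, both fell, the first from 35.3 ± 0.187 to 8.86 ± 0.541 CPM and the other from 69.3 ± 2.09 to 21.02 ± 2.51 CPM. Of KLF, SP and EGR genes, 6 rose and 12 fell of 21 (median log2 fold change -0.59); with an offset per arm 7 rose and 11 fell, and the median relative to the arm was -0.21. KLF5 fell by 1.96 log2 units on 13q (-1.36 relative to 13q) and KLF4 by 1.78, whereas KLF6 rose from 77.7 ± 4.93 to 214 ± 4.33 CPM.

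Several lists of other factors held more falls than rises. Of GRHL, TFCP2, NFI and NFAT genes 2 rose and 12 fell of 17 (median log2 fold change -0.59), of TEAD, YAP, SMAD and SRF genes 4 rose and 15 fell of 27 (6 and 12 with an offset per arm), of nuclear receptors 10 rose and 18 fell of 36, and of HES, HEY, ID and circadian genes 7 rose and 14 fell of 25 (median log2 fold change -0.77). SMAD3 rose from 111 ± 3.00 to 177 ± 19.2 CPM. HEY1, a Notch effector, stood at 40.4, 37.8 and 40.6 CPM in the control libraries and 6.72, 5.84 and 4.46 CPM in the RSF1 libraries (log2 fold change -2.80 ± 0.12, adjusted p = 7.99e-14), while HES1, another, rose from 7.51 ± 1.64 to 24.1 ± 3.30 CPM. NPAS2, a partner of BMAL1 in the clock, rose from 11.1 ± 1.35 to 53.1 ± 5.74 CPM. Its relative CLOCK fell from 135 ± 7.69 to 42.2 ± 8.93 CPM on 4q (-0.98 relative to 4q), and the clock repressor NR1D1 fell from 50.9 ± 1.52 to 13.5 ± 0.844 CPM. TCF7, a Wnt-responsive factor, stood at 28.1, 30.1 and 28.2 CPM in the control libraries and 1.96, 0.699 and 1.51 CPM in the RSF1 libraries (log2 fold change -4.37 ± 0.18, adjusted p = 4.12e-14).

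Factors tied to epithelial and mesenchymal states moved singly. OVOL2, which keeps cells epithelial, fell from 5.66 ± 1.18 to 0.171 ± 0.0998 CPM, and ZEB2, which represses epithelial genes, rose from 4.81 ± 1.35 to 21.2 ± 1.40 CPM. Against that, EHF rose, and HMGA2, often high in mesenchymal-like tumours, fell from 266 ± 6.14 to 98.0 ± 3.89 CPM on 12q (-1.01 relative to 12q). RUNX2, a factor of bone and matrix genes, stood at 20.5, 17.3 and 17.1 CPM in the control libraries and 65.3, 69.5 and 76.3 CPM in the RSF1 libraries (log2 fold change 1.94 ± 0.09, adjusted p = 1.55e-13). FOXO1 rose from 13.8 ± 2.16 to 38.4 ± 1.44 CPM on 13q (2.08 relative to 13q). E2F7, a repressor of E2F targets, fell from 189 ± 6.34 to 45.01 ± 6.92 CPM on 12q (-1.64 relative to 12q). CREB5 went from 0.350 ± 0.0325 to 15.5 ± 2.25 CPM, ARNT2 from 0.264 ± 0.117 to 13.6 ± 1.91 CPM and the homeobox gene PRRX2 from 0.196 ± 0.113 to 7.99 ± 1.05 CPM.

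**Figure D4:**
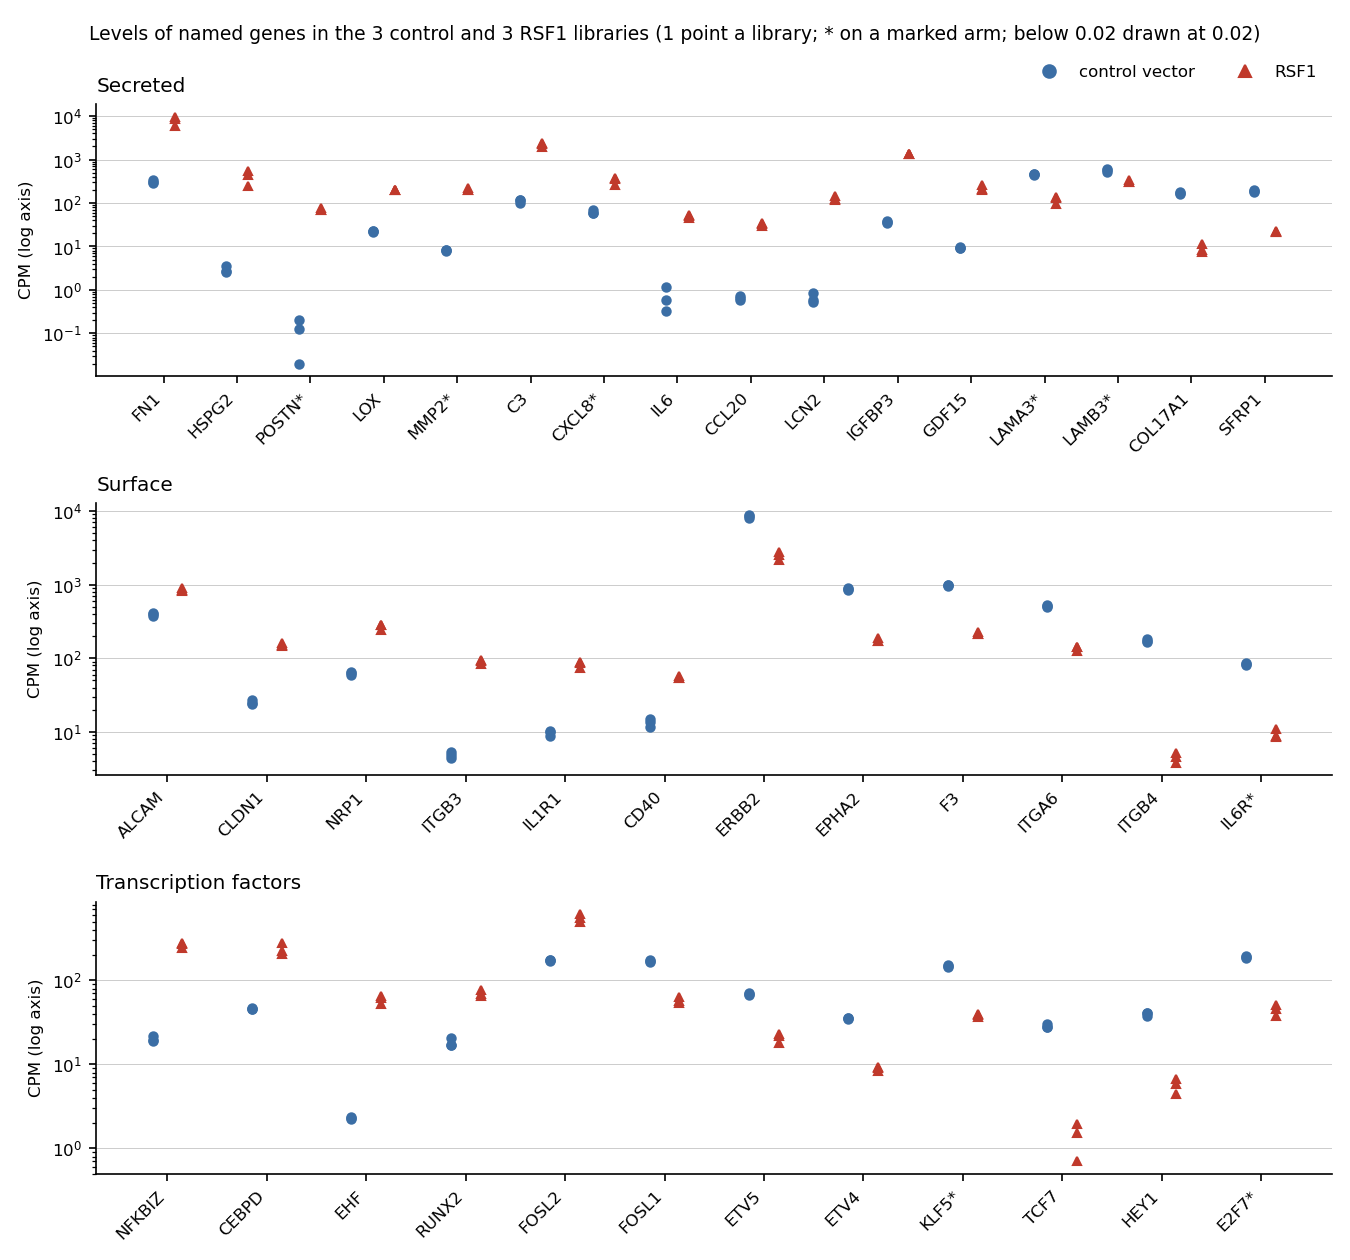
CPM on a log axis (y axis) for named secreted, surface and transcription factor genes (x axis, * for a marked arm) in 3 control (circles) and 3 RSF1 libraries (triangles). For each gene drawn the 2 groups do not overlap, which was a condition for naming it. FN1, C3 and IGFBP3 lie more than 10-fold higher with RSF1, and ERBB2, EPHA2, F3 and ITGB4 lower.

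Among pathways, signalling through kinases and the cell cycle came first. Of PI3K, AKT and mTOR genes, 7 rose and 15 fell of 28, and with an offset per arm 3 rose and 15 fell. Of FOXO target genes, 12 rose and 4 fell of 22 (median log2 fold change 0.52), with SOD2, the mitochondrial superoxide dismutase, at 2.82 and BCL6 at 2.27. PDK4, which also counts as such a target, fell by 2.51 log2 units. Of cyclins and CDK inhibitors, 8 rose and 16 fell of 28. CCND1, cyclin D1, stood at 462, 447 and 469 CPM in the control libraries and 122.5, 129 and 131 CPM in the RSF1 libraries (log2 fold change -1.85 ± 0.06, adjusted p = 1.69e-15), and CDKN1A, the inhibitor p21, at 36.5, 38.5 and 37.9 CPM in the control libraries and 7.56, 9.34 and 8.74 CPM in the RSF1 libraries (log2 fold change -2.14 ± 0.10, adjusted p = 3.09e-13). A cyclin that drives G1 and an inhibitor of its kinase thus fell together.

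Proteasome subunits and enzymes that modify histones or DNA leaned downward. Other protein turnover lists differed: lysosomal genes leaned upward, with 22 rose and 13 fell of 48. Autophagy genes were near even, with 13 rose and 15 fell of 37. Of proteasome subunits, 11 rose and 24 fell of 43 (median log2 fold change -0.33), and with an offset per arm 5 rose and 33 fell. The members with the largest rises were the interferon-inducible subunits PSMB8 (1.11) and PSMB9 (0.91) and the activator PSME1 on 14q (1.35, 0.71 relative to 14q). Of histone methyltransferases and demethylases, 9 rose and 25 fell of 44 (median log2 fold change -0.33); with an offset per arm 7 rose and 21 fell, and the median relative to the arm was -0.18. Of DNA methylation and histone acetylation enzymes 9 rose and 21 fell of 41 (median log2 fold change -0.25); with an offset per arm 8 rose and 20 fell, and the median relative to the arm was -0.15. DOT1L, the H3K79 methyltransferase, went from 137 ± 5.20 to 53.6 ± 7.01 CPM, PHF8, a demethylase, from 82.0 ± 6.45 to 30.8 ± 4.94 CPM, and KAT2B, an acetyltransferase on 3p, from 45.6 ± 4.89 to 13.7 ± 1.96 CPM (-1.19 relative to 3p). DNMT3B, a DNA methyltransferase, rose from 58.4 ± 1.92 to 126 ± 13.9 CPM. Remodeller genes of the SWI/SNF, CHD and INO80 type were even, with 15 rose and 15 fell of 45 (11 rose and 17 fell with an offset per arm), RSF1 counted among the rises.

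Redox and metal genes changed in both directions. MT2A, a metallothionein that binds zinc and copper, stood at 53.9, 58.5 and 57.6 CPM in the control libraries and 792, 522 and 634 CPM in the RSF1 libraries (log2 fold change 3.52 ± 0.11, adjusted p = 5.11e-16), 3.06 relative to 16q, although metallothionein genes resemble each other and share reads. CP, the ferroxidase ceruloplasmin, went from 9.55 ± 1.01 to 127 ± 14.2 CPM. TXNRD1, thioredoxin reductase, fell from 762 ± 7.13 to 236 ± 9.53 CPM on 12q (-1.26 relative to 12q), and PRDX2, a peroxiredoxin, from 213 ± 9.63 to 45.7 ± 3.27 CPM. HMOX1, heme oxygenase, rose from 28.6 ± 1.95 to 135 ± 6.96 CPM on 22q (1.29 relative to 22q). The glutathione and thioredoxin list as a whole was even, with 13 rose and 13 fell of 38.

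Metabolic lists that leaned upward were aldehyde and alcohol dehydrogenases, where 11 rose and 1 fell of 16, and tryptophan, kynurenine and NAD metabolism, where 14 rose and 5 fell of 21 (median log2 fold change 0.66). NNMT, which methylates nicotinamide, stood at 24.1, 25.7 and 28.9 CPM in the control libraries and 285, 226 and 223 CPM in the RSF1 libraries (log2 fold change 3.22 ± 0.10, adjusted p = 2.38e-16), and IDO1, the first enzyme of the kynurenine route, went from 23.9 ± 2.14 to 90.7 ± 4.92 CPM. PHGDH, which opens serine synthesis, went from 27.2 ± 1.88 to 172 ± 9.32 CPM, while its list was even at 5 rose and 7 fell of 25. GLUL, glutamine synthetase on 1q, had 1 count over the control libraries and 23.2 ± 1.59 CPM with RSF1, a ratio of 1056 with a 95% counting interval of 189 to 41758. CYP1B1, a P450 enzyme induced through AHR, went from 23.8 ± 0.768 to 179 ± 13.6 CPM, and CYP24A1, which inactivates vitamin D, from 0.393 ± 0.167 to 12.4 ± 0.823 CPM, while CYP27B1, which activates it, fell from 10.2 ± 1.12 to 1.36 ± 0.361 CPM on 12q (-2.46 relative to 12q). CERS4, a ceramide synthase, rose from 1.01 ± 0.316 to 38.4 ± 4.49 CPM. PTGES, a prostaglandin E synthase, fell from 36.1 ± 2.18 to 5.85 ± 0.434 CPM.

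Cytoskeletal lists differed. Of myosins, tropomyosins and actin filament genes, 24 rose and 8 fell of 43 (median log2 fold change 0.44). TAGLN, an actin-binding protein of contractile cells, went from 3.44 ± 0.488 to 30.5 ± 1.52 CPM, and MYLK, the myosin light chain kinase, from 36.3 ± 1.77 to 153 ± 30.6 CPM. FLNA, filamin A, stood at 5416, 5526 and 5151 CPM in the control libraries and 2298, 2711 and 3127 CPM in the RSF1 libraries (log2 fold change -0.98 ± 0.08, adjusted p = 6.72e-10). Of tubulins and intermediate filaments other than keratins, 7 rose and 10 fell of 24, and with an offset per arm 9 rose and 7 fell. TUBA1A, an alpha tubulin, rose from 184 ± 13.2 to 438 ± 11.5 CPM on 12q (1.68 relative to 12q), although tubulin genes resemble each other and can share reads. LMNA, which encodes lamins A and C, fell from 1267 ± 61.3 to 438 ± 30.5 CPM on 1q (-1.01 relative to 1q). LCP1, an actin bundler of blood cells, had 1 count over the control libraries and 44.3 ± 3.97 CPM with RSF1 on 13q, a ratio of 2024 with a 95% counting interval of 363 to 79984, while the leukocyte gene PTPRC was at 0.0663 ± 0.0664 CPM in the control and 0.295 ± 0.202 CPM with RSF1. Of mucin-type and terminal glycosylation genes, 25 rose and 11 fell of 47 (median log2 fold change 0.35), with CHST2, a sulfotransferase, at 734, 773 and 718 CPM in the control libraries and 180.4, 161 and 170.1 CPM in the RSF1 libraries (log2 fold change -2.12 ± 0.07, adjusted p = 5.14e-16).

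**Figure D5:**
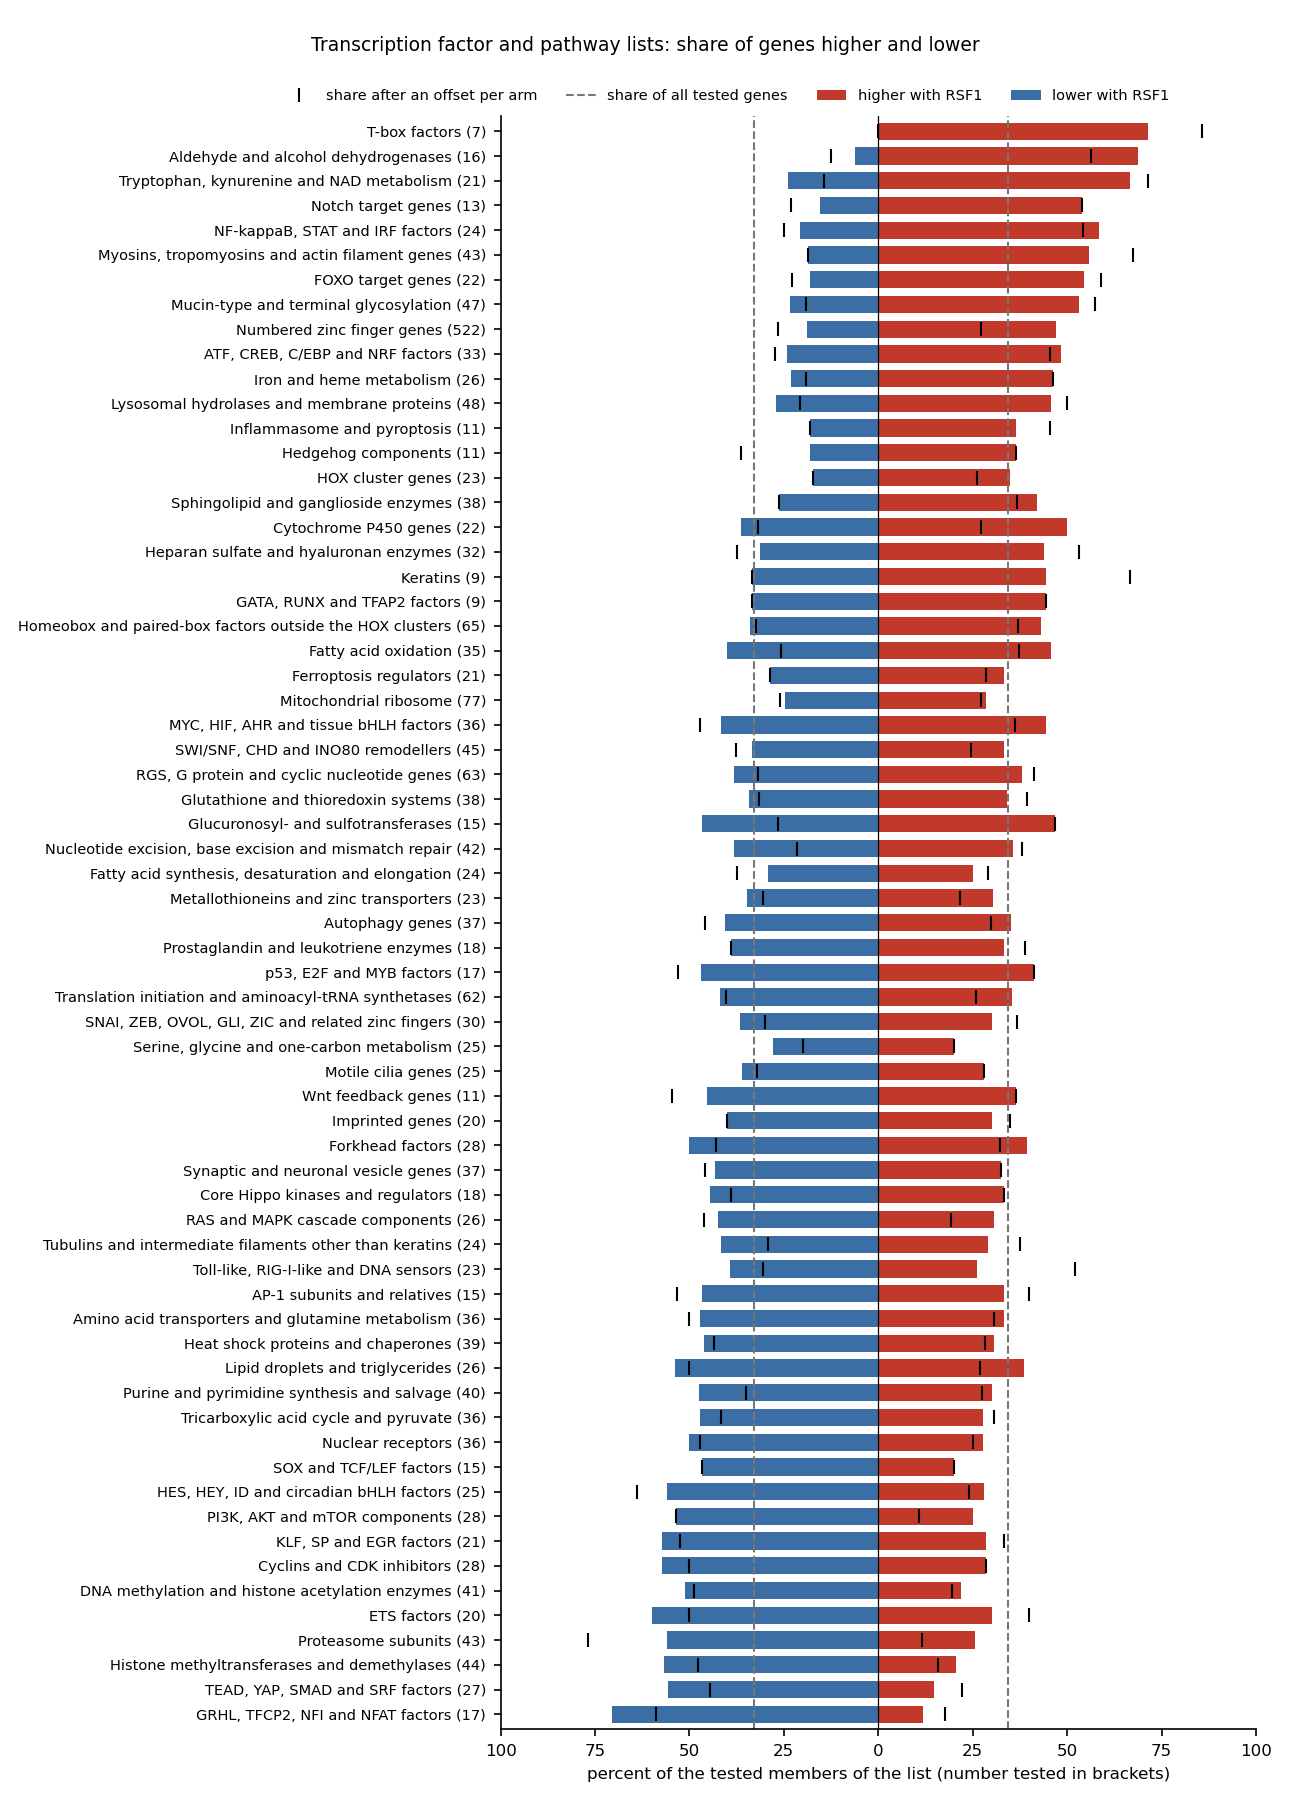
For the transcription factor and pathway lists drawn, each with at least 7 tested members (number in brackets), bars give the percent that rose (right) and fell (left), short lines the same after an offset per chromosome arm, and dashed lines the shares over all genes, 34.3% and 32.9%. For numbered zinc finger genes and proteasome subunits the short lines lie well off the bars.

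Some genes moved against their whole arm. On the downward arms, INHBE, an inhibin subunit, rose on 12q (from 0.111 ± 0.138 to 7.29 ± 1.26 CPM), FBLN2, a fibulin, on 3p (5.58), RARB, a retinoic acid receptor, on 3p (from 1.45 ± 0.0851 to 6.34 ± 0.412 CPM), FRAS1 on 4q (2.45) and EMILIN2 on 18p (2.92). On the upward arms, the angiogenesis inhibitor VASH1 fell on 14q (from 11.6 ± 0.420 to 4.59 ± 1.02 CPM), SHANK3 on 22q (-0.35), the potassium channel KCNN4 on 19q (-0.91), the Wnt feedback gene NKD1 on 16q (from 6.03 ± 0.485 to 2.35 ± 0.367 CPM) and the transporter SLC47A1 on 17p (from 8.48 ± 0.225 to 1.81 ± 0.251 CPM). Values in brackets without CPM are log2 fold changes.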

How the data were processed

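Poly(A) RNA of SKOV3 cells was sequenced by the authors, with TRIzol extraction, poly-T bead selection and random hexamer priming per the labels' protocols. The authors deposited counts of reads per gene, with no normalization. FastQC, STAR 2.7.9a and Subread, and the builds GRCh38, hg38 and GRCm38, are named in the submitters' processing notes. The sources used here do not give the annotation release or strand setting. Of 58279 gene IDs shared with GENCODE 29, 58264 overlap it in position. One table record split over 3 lines was rejoined.

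Counts of all 9 SKOV3 libraries were fitted together with edgeR 4.0.16 (R 4.3.3, limma 3.58.1): scaling by TMM, a filterByExpr minimum count of 10, a quasi-likelihood test with 6 residual degrees of freedom and a biological coefficient of variation of 0.0734, and Benjamini-Hochberg adjustment over 16735 genes. DESeq2 1.42.0 and limma-voom served as alternatives. The standard error is the absolute log2 fold change over the square root of F. Fold changes carry a prior count of 0.125. For genes with 0 counts in a group a bound against 3 counts over the group is given, and for 1 to 3 counts a ratio with a 95% counting interval. Intervals and bounds cover counting error only. The fit was also run on simulated counts with few changed genes and no shifted arm. That setting is unlike these data, so it does not show how the test performs here.

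The comparison and 113 gene lists were chosen with earlier results of these data known, and 3 list entries had no row. Named genes are RSF1, markers, and up to 3 risen and 3 fallen members of each list with the largest fold change. Also named are the 10 largest differences in CPM per kb per class and direction. For each marked arm the 2 genes furthest against it were added. Apart from RSF1 and markers, each had to have at least 5 CPM in the higher group and groups that did not overlap. Each of these also had to have an adjusted p under 0.05 in edgeR's test. Promoters are from RefSeq (GRCh38.p14), and arm limits from a table of chromosome arms. Reads of near-identical, overlapping or antisense genes cannot be assigned with certainty. Alternatives covered scaling, filters, tools, a fold threshold, libraries in the fit, the replicate block, an offset per arm and leaving out each library. Figures were drawn with matplotlib 3.10.9. Some named genes and lists are not reported here.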

Additional observations from a re-analysis of the deposited data

How the results depend on the processing

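Across other scalings, filters and tools, the counts over all genes and per class stayed within 1.5 times the reported ones. Small counts of single lists moved more. With a minimum count of 30, rises in the TNF receptor list went from 5 to 3, falls of vasoactive peptides from 8 to 3 and falls of serpins from 2 to 1. Rises of apolipoproteins went from 7 to 4 with only the 6 libraries in the fit. With upper-quartile scaling, rises in the TEAD list went from 4 to 7 and in the GRHL list from 2 to 4, and falls in the serine list from 7 to 4. Without RSF1 replicate 1, GRHL rises were 4 and acute-phase falls 2 in place of 1. GRHL rises were 1 without RSF1 replicate 3 or control replicate 3, and serine falls 4 without control replicate 1. Upper-quartile scaling gave 6343 rises and 4889 falls over all genes, with the median of all genes at 0.096. Tested against a fold of 1.5, counts dropped to 3077 rises and 2278 falls over all genes, 181 falls among surface genes, 65 falls among secreted genes, and 202 rises and 129 falls among transcription factor genes; this follows from the stricter test. With arms marked from 0.58 rather than 0.4, 6 arms remained marked. Leaving out each library in turn gave 5522 to 5900 rises and 5152 to 5733 falls over all genes, 312 to 348 and 277 to 300 for surface genes, 218 to 228 and 97 to 104 for secreted genes, and 381 to 424 and 263 to 286 for transcription factor genes. RSF1 replicate 1, which stood apart, gave 5900 and 5733 when left out. The number of marked arms was 14 to 15, with 21q lost without RSF1 replicate 3.

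Replicate numbers are shared between groups, but same-numbered libraries did not deviate together (r = -0.0210, -0.0417 and -0.00935 across genes). These values cannot show whether such libraries shared a culture or day, which the labels do not give. With the replicate block, 5668 rose and 5496 fell. None of the 168 genes named by list, level or arm lost its call under the block. These genes had to be called in the main fit to be named, so kept calls follow in part from that choice. Under the fold of 1.5 the calls of DDR1, KRT19, SHANK3, SMAD3, STAT3 and TGFA were lost among the 168. PAX8, THY1 and other markers named only as markers were not counted there, and THY1 lost its call with the offset per arm.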

Other observations

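The counts cannot separate a copy number difference between the control and RSF1 cells from a change in transcription, and the labels do not say whether each group descends from a single clone. With 3 libraries a group and 67.3% of genes called, the tests measure the difference between these 2 sets of libraries. Levels are of RNA, and protein at the surface or in the medium was not measured here. Genes below the count filter were not tested, among them most chemokines (8 of 45 were tested). The 3 RSF1delUAB libraries entered the fit and were not described.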
